A study of Mus musculus with 28 samples.

Results

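Frmd6 (ENSMUSG00000048285.7; mm9 chr12:71926501-72003219, plus strand) was examined through the H3K27ac regions around it. The locus was selected on the data themselves, because regions with some of the highest fold enrichments among those called at 0h and absent after TGF-β lie here. A peak was assigned to the locus when its summit was within 150 kb of either of the 2 annotated start sites of Frmd6, and overlapping peaks of all libraries were merged. This gave 29 regions of 89050 in all, made of 376 peaks.

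The measurements were H3K27ac ChIP-seq peak lists of 15 libraries, 3 in each of 5 conditions of the mouse mammary gland epithelial line NMuMG, here one subclone (NMuMG/E9). Cells were untreated (0h), or treated with 2 ng/ml TGF-β for 4h or 24h after 30 min with either DMSO (4h and 24h) or the ERK signalling inhibitor UO126 at 25 µM (ERKi 4h and ERKi 24h). The 0h libraries are described as untreated, so no condition carries UO126 without TGF-β, and the effect of the inhibitor alone cannot be told apart from its effect on the response. As a check of the cell type, a peak lay within 500 bp of a start site of the epithelial genes Cdh1, Krt8 and Krt19 in 15 of 15 libraries and of Krt18 in 14, whereas none did so for Epcam or Cldn7. The libraries held between 50445 and 69180 peaks, with a median summit pileup (fragments overlapping the summit) of 38 to 57. Nothing in the sample records says whether the 3 replicates are separate cultures, so the spread given here may be technical.

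Frmd6, also called Willin, is a FERM-domain protein of the cell cortex, related to Expanded of Drosophila, and has been placed upstream of the Hippo pathway. In that pathway the kinases Stk3 and Stk4 act with Sav1 on Lats1 and Lats2, which with Mob1 hold the coactivators Yap1 and Wwtr1 (TAZ) out of the nucleus and away from the TEAD factors. H3K27ac marks active promoters and enhancers. TGF-β drives NMuMG cells through an epithelial-mesenchymal transition.

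The DNA of the regions on which the description turns is shown first. Each window has 300 bp, is read from mm9 on the plus strand, and is centred on the highest summit of a region or on the gap between a pair of neighbouring regions. Capitals mark matches on either strand to AP-1 (TGANTCA), TEAD (GGAATG), GRHL (AACCNGTT), RUNX (TGTGGTT), ETS (AGGAAG), FOX (TGTTTAC) or an E-box of the ZEB type (CAGGTG). The short SMAD element CAGAC was also counted but is left in lower case. Shown are the 2 regions lost by 24h, one region of the pair lost by 4h, the gap of the pair gained at 24h and the gap of a far upstream pair that differed between ERKi and DMSO.
30.2 kb upstream, summit, chr12:71896289-71896588: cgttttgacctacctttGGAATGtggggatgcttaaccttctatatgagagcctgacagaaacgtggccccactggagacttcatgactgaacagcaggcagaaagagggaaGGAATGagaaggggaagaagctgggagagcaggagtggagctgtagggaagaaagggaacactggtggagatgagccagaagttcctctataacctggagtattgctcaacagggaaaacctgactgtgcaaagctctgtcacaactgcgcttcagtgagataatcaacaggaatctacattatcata
12.2 kb upstream, summit, chr12:71914117-71914416: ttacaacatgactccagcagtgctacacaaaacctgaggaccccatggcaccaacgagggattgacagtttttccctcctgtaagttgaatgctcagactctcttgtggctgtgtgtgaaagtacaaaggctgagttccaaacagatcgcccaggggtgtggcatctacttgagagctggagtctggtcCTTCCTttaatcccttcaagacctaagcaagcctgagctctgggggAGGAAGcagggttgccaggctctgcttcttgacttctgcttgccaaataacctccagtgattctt
55.4 kb upstream, summit, chr12:71871057-71871356: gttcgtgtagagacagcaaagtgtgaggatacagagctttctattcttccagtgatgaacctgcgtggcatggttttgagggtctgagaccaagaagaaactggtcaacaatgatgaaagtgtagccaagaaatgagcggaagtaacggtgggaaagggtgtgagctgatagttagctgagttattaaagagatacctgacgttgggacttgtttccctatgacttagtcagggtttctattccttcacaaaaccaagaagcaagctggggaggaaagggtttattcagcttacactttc
65.1 and 66.4 kb downstream, gap, chr12:71992058-71992357: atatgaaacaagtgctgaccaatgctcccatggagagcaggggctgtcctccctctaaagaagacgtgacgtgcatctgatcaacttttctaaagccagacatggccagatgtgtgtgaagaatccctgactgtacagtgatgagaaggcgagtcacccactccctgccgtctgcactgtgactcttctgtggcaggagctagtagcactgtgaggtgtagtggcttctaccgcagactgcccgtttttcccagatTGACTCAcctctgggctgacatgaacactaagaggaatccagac
105.0 and 104.2 kb upstream, gap, chr12:71821651-71821950: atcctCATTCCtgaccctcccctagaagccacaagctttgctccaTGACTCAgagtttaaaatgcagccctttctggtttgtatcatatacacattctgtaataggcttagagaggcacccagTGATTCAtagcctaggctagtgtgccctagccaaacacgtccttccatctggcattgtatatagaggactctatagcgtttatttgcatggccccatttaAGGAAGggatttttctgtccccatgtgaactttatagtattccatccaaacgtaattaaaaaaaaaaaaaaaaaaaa

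Of these windows, that 30.2 kb upstream held 2 TEAD matches, at bases 18 and 113, and none of the other marked motifs. The window 12.2 kb upstream held 2 ETS matches, and that 55.4 kb upstream held no marked motif. The window over the gap inside Frmd6 held 1 AP-1 match, at base 257, which lies in the called region 66.4 kb downstream. The window over the far upstream gap held 2 AP-1 matches, 1 TEAD match and 1 ETS match. Its AP-1 and TEAD matches lie in the region 105.0 kb upstream and its ETS match in that 104.2 kb upstream. A match is only a description of the letters in these windows.

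Along the chromosome, the 29 regions fall into 5 stretches. Upstream of Frmd6, 14 intergenic regions lay between 12.2 and 129.9 kb from the first start site, with no other gene start in that part of the window. A pair flanked the first start site, with middles 0.5 kb upstream and 0.7 kb downstream and 147 bp between them. Inside Frmd6 there were 4 regions, of which 2 lay in intron 1 and 2 in intron 10. The second start site, 46.1 kb into the gene, was without a region, the nearest being 18.6 kb away. Farther downstream, 2 intergenic regions lay between Frmd6 and Actr10, and 7 were at or next to the starts of Actr10, Psma3, 3110056K07Rik and Arid4a. Regions were 252 to 1848 bp wide, and 12 of them were called in every library.

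Levels are given as the summit pileup and as the percentile of that pileup among all peaks of the same library, with 0 for a library without a peak. The lowest pileup called in the locus was 11 to 18 fragments depending on the library, so a region without a call was not necessarily unacetylated. Where the local background was high, an uncalled region may have held more than that. The region 117.4 kb upstream, beside a stronger one, had no call below 30 fragments. The deposited fold enrichment divides the pileup by the local background, and where it gave another picture its values stand beside the pileup.

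**Figure D1:**
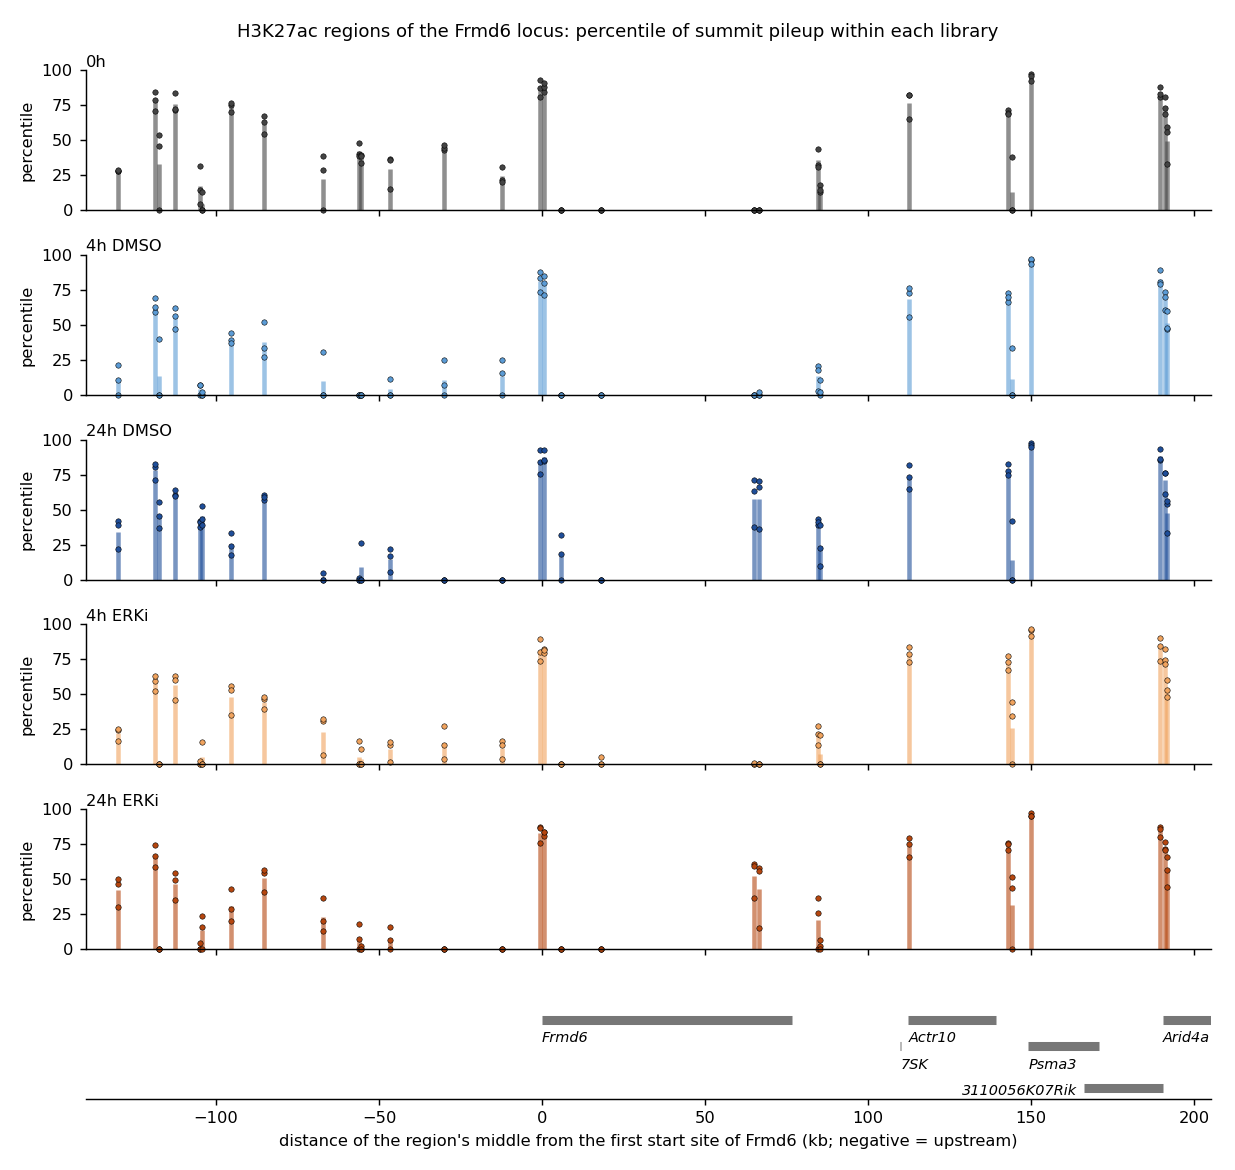
Percentile of summit pileup within the library (y axis) against the distance of each of the 29 regions from the first start site of Frmd6 in kb (x axis), one panel per condition. Stems are means of 3 libraries, points are single libraries and grey bars at the bottom are genes; the start-flanking pair stays above a mean of 78 in each condition, while regions between 56.1 and 12.2 kb upstream stand highest at 0h.

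The start of Frmd6 carried high H3K27ac in all 5 conditions. The region 0.7 kb downstream (chr12:71926462-71927858) overlaps the first start site and first exon. Its pileup was 167, 112 and 136 fragments at 0h. With DMSO it was 101, 101 and 107 at 4h and 142, 130 and 120 at 24h, and with ERKi 105, 87 and 104 at 4h and 146, 84 and 142 at 24h. In percentiles these were 87.7 ± 3.19 (SD, n = 3), 78.7 ± 7.00, 87.6 ± 4.15, 81.1 ± 1.5 and 82.7 ± 1.44. The 0h and 24h libraries overlapped. In percentile each of the 3 ERKi 24h libraries was below each of the 3 DMSO 24h libraries. In fragments and in fold enrichment these libraries overlapped. By percentile of fold, every ERKi 4h library was above every DMSO 4h library. Its partner 0.5 kb upstream (chr12:71925595-71926314) had mean percentiles between 81.3 and 87.0, and its libraries overlapped between 0h and each other condition.

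The regions that were called at 0h and not after TGF-β lay in the upstream stretch nearest the gene. By the calls that chose the locus, 2 of the 28 regions with a peak at 0h or 24h were called in all 0h and no 24h libraries, beside 2.52% of all 73131 such regions. They are the regions 30.2 kb (chr12:71895560-71896950) and 12.2 kb (chr12:71913933-71914586) upstream, and nothing is read from their count, which is part of how the locus was found.

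The region 30.2 kb upstream had a pileup of 46, 36 and 40 fragments at 0h. At 4h replicate 1 had no peak and the other 2 had 21 and 14, and at 24h no library had a peak. With ERKi all 3 libraries had a peak at 4h, of 14, 22 and 17 fragments, and none at 24h. The local background at 0h was 2.99 to 4.5 fragments, which gave fold enrichments of 8.54, 9.23 and 10.3. By that fold, this region ranked 1 of the 1845 regions lost between 0h and 24h in the genome, and by its pileup 361. The high fold of the lost regions is part of how the locus was found, so nothing is read from their ranks by fold. The mean 0h percentile of the region was 90.4 by fold and 44.9 by pileup.

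The region 12.2 kb upstream had 23, 26 and 20 fragments at 0h. At 4h it had no peak in replicate 1 and 21 and 18 fragments in the others, and at 24h it had none. With ERKi it had 14, 17 and 17 fragments at 4h and no peak at 24h. It ranked 73 of 1845 by fold and 909 by pileup. Both regions were thus without a call in all 6 libraries taken at 24h, with DMSO or with ERKi.

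The 4h calls picked out another pair, separated by 204 bp. Of the 26 regions with a peak at 0h or 4h, 2 were called in all 0h and no 4h libraries, beside 0.565% of 62462 in all; this count too was part of the choice. The region 56.1 kb upstream (chr12:71869994-71870720) had 41, 39 and 32 fragments at 0h, with folds of 8.38, 9.37 and 7.29. That 55.4 kb upstream (chr12:71870925-71871339) had 34, 32 and 32 fragments. By fold at 0h they ranked 1 and 2 of the 353 regions lost by 4h, and by pileup 66 and 76. The fold was part of the choice as well, and nothing is read from these ranks.

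After 4h the pair was called only in scattered libraries. At 24h replicate 2 alone had a peak, of 12 fragments at 56.1 kb and 22 at 55.4 kb, and without that library the count of regions lost at 24h is 4 in place of 2. With ERKi at 4h replicate 2 alone had peaks, of 17 and 15 fragments. With ERKi at 24h, replicates 2 and 3 had 19 and 14 fragments at 56.1 kb and replicate 2 had 13 at 55.4 kb. Each of these was below the lowest 0h value of its region.

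**Figure D2:**
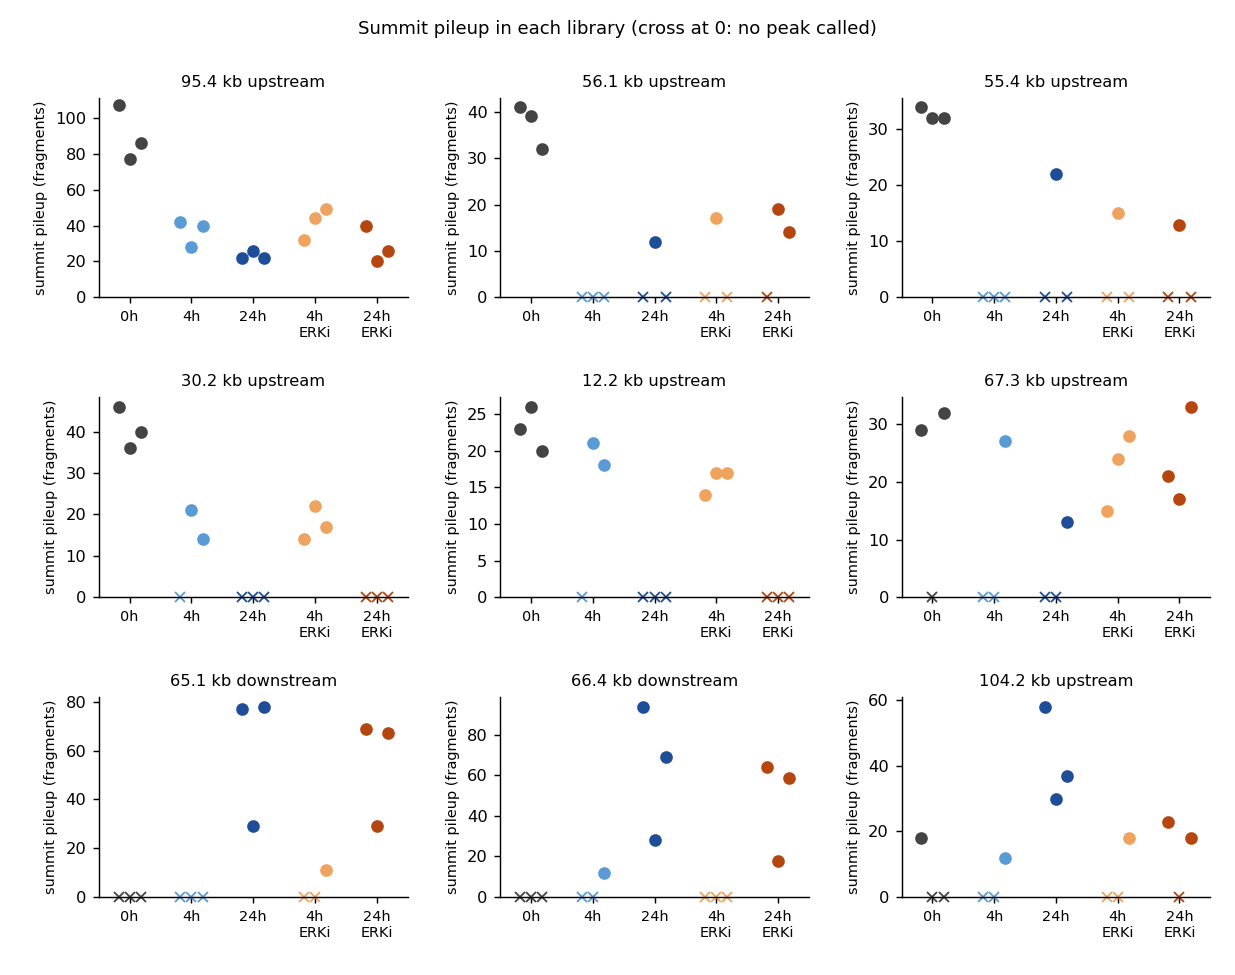
Summit pileup in fragments (y axis) in each of the 15 libraries (x axis, by condition) for 9 regions of the locus, with crosses at 0 for libraries without a peak. The regions 30.2 and 12.2 kb upstream have no call in the 6 libraries of 24h, and those 65.1 and 66.4 kb downstream have calls in all 6 of them.

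The lower calls at 4h were not limited to these regions. By percentile, 11 of 26 regions had every 0h library above every 4h library, beside 5.21% of all regions, and 9 of the 11 were upstream. At 24h the same was true of 6 of 28 regions, beside 9.62%, and all 6 were upstream. By percentile of fold enrichment, the counts were 5 of 26 at 4h, beside 4.21% in all, and 4 of 28 at 24h, beside 8.16%. By fold, 2 regions had the reverse at 4h, beside 6.71%. All these counts use the contrasts behind the choice of the locus and are given as a description. The median of 0h minus 4h was 11.5 percentile points over the members and 0.39 over all regions; that of 0h minus 24h was -0.02 over the members and -1.04 over all.

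The widest region of the locus, 95.4 kb upstream (chr12:71830128-71831975), was called in every library. Its pileup was 107, 77 and 86 fragments at 0h, 42, 28 and 40 at 4h, and 22, 26 and 22 at 24h. With ERKi it was 32, 44 and 49 fragments at 4h and 40, 20 and 26 at 24h. All 12 libraries with TGF-β were below all 3 at 0h, and the ERKi and DMSO libraries overlapped in pileup at both times. By percentile of fold, every ERKi 4h library was above every DMSO 4h library. The mean pileup percentile of the region was 73.7 ± 3.44 before TGF-β and 25.1 ± 7.77 at 24h. The fold enrichment did not separate in this way, since it was 6.48, 6.53 and 5.66 at 0h and 5.24, 6.29 and 5.52 at 24h, and the values overlapped.

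On either side of it the course of the pileup differed. The region 118.7 kb upstream started from 111, 85 and 108 fragments, had 73, 54 and 78 at 4h and then 96, 87 and 109 by 24h. The region 85.3 kb upstream started from 66, 56 and 68 fragments, had 30, 26 and 50 at 4h and then 65, 51 and 57 by 24h. In both, every 4h library was below every 0h library in pileup percentile, and the 0h and 24h libraries overlapped. By percentile of fold, every 24h library was above every 0h library in both. The region 112.6 kb upstream was intermediate, its mean percentile being 75.9 ± 6.89 before TGF-β, 55.3 ± 7.41 at 4h and 61.5 ± 2.23 by 24h. By fold enrichment the direction at 4h was the reverse in 2 of these 3 regions. The region 118.7 kb upstream had folds of 5.17, 5.10 and 5.54 before TGF-β and of 6.59, 5.80 and 6.43 at 4h, and that 112.6 kb upstream 5.94, 5.87 and 6.08 before and 6.96, 6.20 and 6.37 at 4h.

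A pair 105.0 and 104.2 kb upstream, 13 bp apart, was higher at 24h than at 0h. The region 105.0 kb upstream had 19, 14 and 27 fragments at 0h and 42, 29 and 35 at 24h. Its partner had a peak in replicate 1 alone at 0h, of 18 fragments, and 58, 30 and 37 fragments at 24h. Their 24h libraries all exceeded their 0h libraries in pileup percentile. By fold enrichment those of the region 105.0 kb upstream overlapped, with 3.88, 3.62 and 5.95 at 0h against 4.98, 4.71 and 5.19 at 24h. By percentile of fold those of its partner did not overlap. These distal regions were named after their values were seen.

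Inside Frmd6, the regions of intron 10 appeared at 24h. Of 28 regions, 2 were called in all 24h and no 0h libraries, beside 5.98% in all, and they are this pair, separated by 156 bp. The region 65.1 kb downstream (chr12:71991166-71992129) had 77, 29 and 78 fragments at 24h, 69, 29 and 67 at ERKi 24h, a single call of 11 fragments at ERKi 4h (replicate 3) and no call at 0h or 4h. The region 66.4 kb downstream (chr12:71992286-71993546) had 94, 28 and 69 fragments at 24h, 64, 18 and 59 at ERKi 24h, a single call of 12 at 4h (replicate 3) and none at 0h or ERKi 4h.

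Replicate 2 was the lowest at 24h with either agent in both intron 10 regions, by pileup and by percentile. In every condition replicate 2 also had the lowest median pileup over all peaks, 38 to 41 fragments, and the part of this in the values was not tested. The DMSO and ERKi libraries of 24h overlapped as groups, although the ERKi library had the lower percentile in 3 of 3 replicate pairs in both regions. The values were mean percentiles of 57.4 ± 17.3 and 52.3 ± 13.5 at 65.1 kb, and of 57.7 ± 18.5 and 42.9 ± 24.0 at 66.4 kb. Among the 4376 regions gained between 0h and 24h in the genome, they ranked 828 and 808 by pileup and 1634 and 1553 by fold. By percentile, 5 of 28 members had every 24h library above every 0h library, beside 15.5% in all; by fold 6 of 28 did, beside 13.3%.

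Intron 1 held the remaining regions of the gene. The one 5.9 kb downstream was called in 2 libraries, at 24h, with 32 and 19 fragments, and the one 18.2 kb downstream in 1 library, ERKi 4h replicate 2, with 13.

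**Figure D3:**
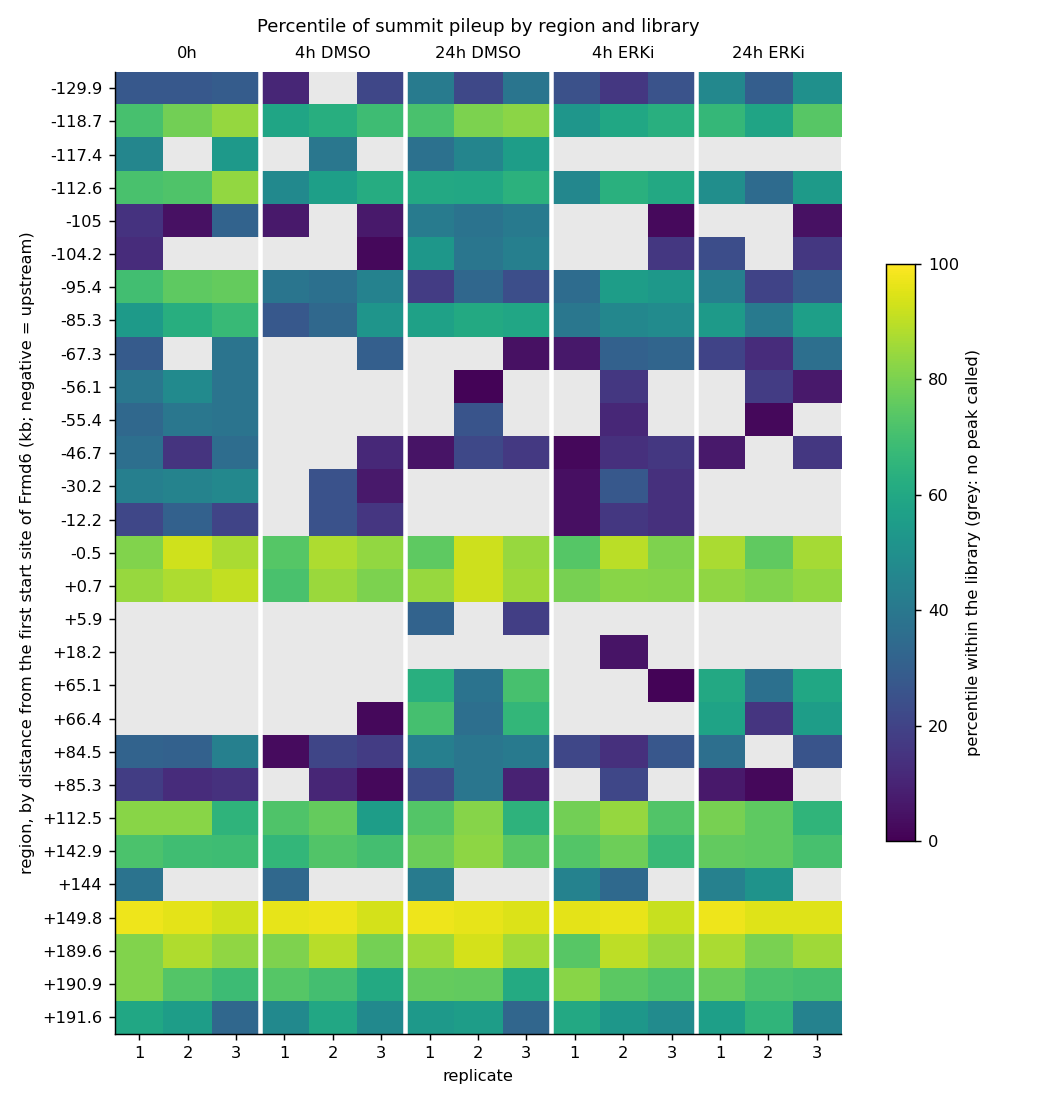
Percentile of summit pileup (colour, 0 to 100; grey where no peak was called) for the 29 regions, ordered by distance from the first start site of Frmd6 (rows), in the 15 libraries (columns, 3 replicates per condition). The rows at 56.1, 55.4, 30.2 and 12.2 kb upstream are filled at 0h and grey in 7 or more of the 12 libraries with TGF-β, and the rows at 65.1 and 66.4 kb downstream are filled at 24h with DMSO and with ERKi.

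How far ERK inhibition altered the response was asked by comparing ERKi with DMSO at each time. The DMSO libraries entered the choice of the locus, so these comparisons have no test. At 4h no region separated the agents by pileup. Of 28 regions, 0 were called in all ERKi 4h and no 4h libraries, beside 0.316% in all, 0 had every ERKi library above every DMSO library in percentile, beside 3.68%, and 0 the reverse, beside 3.52%. By percentile of fold, 2 were higher with ERKi, beside 3.7%, and 1 was lower, beside 3.45%. Without 4h replicate 3 the first count is 2, the regions 67.3 and 46.7 kb upstream, which that library alone called at 4h, with 27 and 16 fragments.

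At 24h, upstream regions that separated were more often lower than higher with ERKi by pileup percentile, but not by percentile of fold. Of 26 regions, 0 were called in all ERKi 24h and no 24h libraries, beside 1.73% in all, and 1 was called in all 24h and no ERKi 24h libraries, beside 1.41%. By percentile, 8 of 26 (30.8%) had every DMSO library above every ERKi library, beside 6.55% of all regions, and 1 had the reverse, beside 8.81%. By percentile of fold the counts were 4, beside 6.06%, and 2, beside 8.21%, and 3 of the 8 regions separated by both measures, those 117.4 and 105.0 kb upstream and 85.3 kb downstream. The 8 comprised 5 upstream regions, the region over the start site and both regions between Frmd6 and Actr10. The median of ERKi minus DMSO at 24h was -4.97 percentile points over the members and 0.76 over all regions.

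The single region called with DMSO alone was 117.4 kb upstream (chr12:71808856-71809363). It had 37, 35 and 52 fragments at 24h and no peak in any of the 6 ERKi libraries. At 0h it was called in replicates 1 and 3, with 50 and 48 fragments, and at 4h in replicate 2, with 30. This region sits on the flank of the stronger one 118.7 kb upstream, 126 bp away, and its fold at 0h was 1.86 and 1.97 over a background of 26.4 and 23.9 fragments.

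The pair 105.0 and 104.2 kb upstream came next by size of the difference. At ERKi 24h the region 105.0 kb upstream was called in replicate 3 alone, with 13 fragments, against 42, 29 and 35 with DMSO. The region 104.2 kb upstream had 23 and 18 fragments in replicates 1 and 3 and no peak in replicate 2, against 58, 30 and 37. In percentiles the differences of ERKi from DMSO were -38.7 and -31.9 points. By fold enrichment the called libraries overlapped at 104.2 kb, with 5.77 and 4.88 against 6.82, 4.82 and 5.51.

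The others were smaller or near the calling threshold. The region 112.6 kb upstream had 49, 28 and 57 fragments at ERKi 24h against 71, 50 and 65, and that 85.3 kb upstream had 57, 32 and 61 against 65, 51 and 57. By fold enrichment the libraries overlapped in both, with 7.09, 6.09 and 7.10 against 7.36, 5.37 and 6.08 in the first and 11.1, 8.03 and 11.4 against 9.24, 8.32 and 8.97 in the second. The region over the start site had folds of 8.20, 7.58 and 9.87 with ERKi against 7.11, 7.48 and 7.80. Downstream of the gene, the region at 84.5 kb had 33 fragments, no peak and 24 fragments with ERKi, against 44, 30 and 35 with DMSO. By fold enrichment its called libraries overlapped, with 8.17 and 6.42 against 8.92, 5.80 and 8.82. Its neighbour at 85.3 kb had 15 and 13 fragments and no peak, against 25, 30 and 15.

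The only region higher with ERKi at 24h by both pileup and fold percentile was that 67.3 kb upstream (chr12:71858670-71859795). It had 21, 17 and 33 fragments with ERKi, and with DMSO a single peak of 13 fragments in replicate 3. At 0h it had 29 and 32 fragments in replicates 1 and 3 and none in replicate 2. Without 24h replicate 3 it would be called in all ERKi 24h and no 24h libraries, and that count would be 1 in place of 0.

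**Figure D4:**
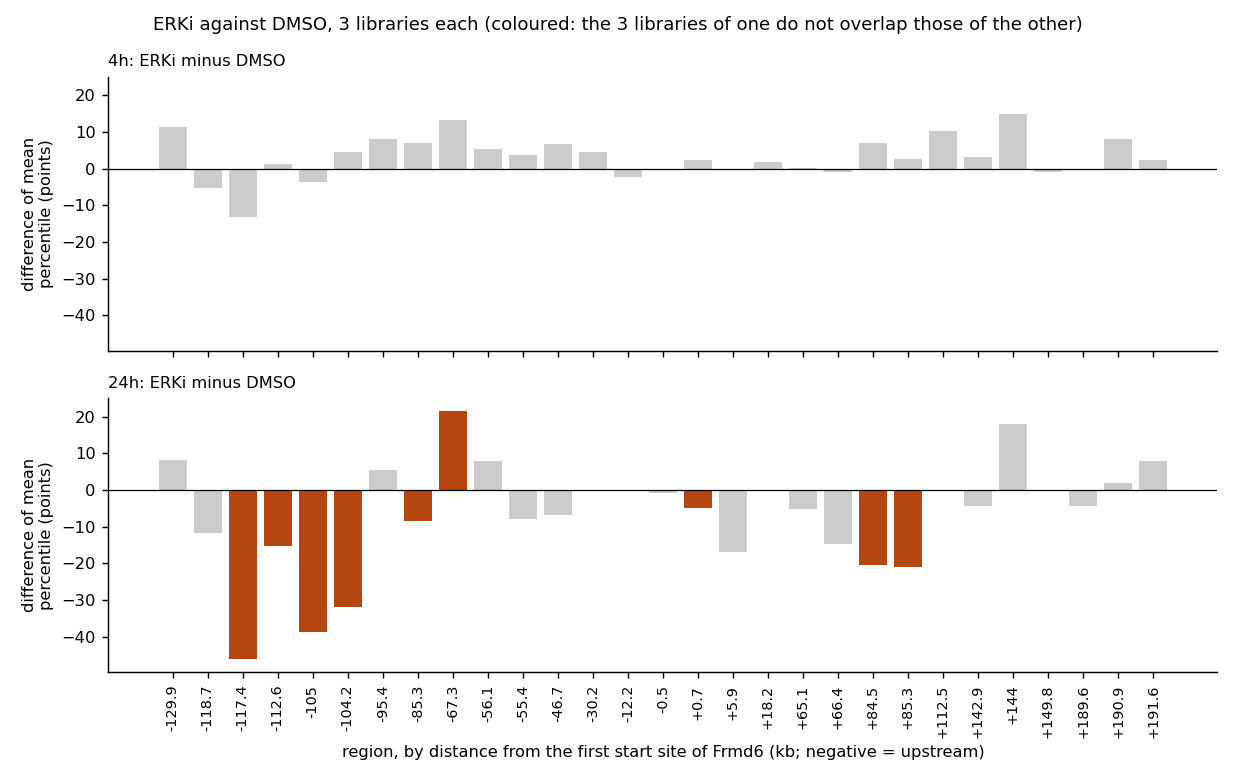
Difference of mean percentile between ERKi and DMSO (y axis, percentile points) at 4h and at 24h for the 29 regions, ordered by distance from the first start site of Frmd6 (x axis). Coloured bars are regions whose 3 ERKi and 3 DMSO libraries do not overlap; there are none at 4h and 9 at 24h, of which 8 are below 0.

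The ERKi libraries were not used to choose the locus, so the summed signal was tested between ERKi 4h and ERKi 24h, and the regions are given by count. Of 27 regions, 2 were called in all ERKi 4h and no ERKi 24h libraries, beside 0.8% in all, and they are those 30.2 and 12.2 kb upstream. One region, 66.4 kb downstream, was called in all ERKi 24h and no ERKi 4h libraries, beside 2.09%. By percentile, 2 of 27 had every ERKi 4h library above every ERKi 24h library, beside 4.29%, and 3 the reverse, beside 8.83%, namely those 129.9 kb upstream and 65.1 and 66.4 kb downstream. No p is given for these 5 regions, since they were picked because their libraries separate.

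The region 129.9 kb upstream (chr12:71795686-71797416) had 24, 17 and 23 fragments at ERKi 4h and 45, 25 and 50 at ERKi 24h. With DMSO it had 19 and 21 fragments and no peak in replicate 2 at 4h, and 42, 20 and 33 at 24h. Its ERKi and DMSO libraries overlapped at both times by pileup percentile. By percentile of fold, every ERKi 24h library was above every DMSO 24h library.

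Summed over the locus, the signal was expressed as the pileup of its peaks per 1000000 of the summed pileup of all peaks of the library. It was 473 ± 38.5 (SD, n = 3) at 0h, 300.3 ± 26.8 at 4h, 389 ± 47.8 at 24h, 344 ± 71.0 at ERKi 4h and 316 ± 26.7 at ERKi 24h. The 0h libraries, with 495, 494 and 428, were above all those of 4h (306, 324 and 271) and of 24h (408, 425 and 335). With ERKi the libraries had 304, 426 and 301 at 4h and 344, 315 and 290.5 at 24h. The bases covered by peaks were 19282 ± 2584 at 0h and 13814 ± 1002 at 4h.

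On the log2 scale, 4h differed from 0h by -0.65 and 24h from 0h by -0.29, with no test since these contrasts chose the locus. Without 24h replicate 3 the latter is -0.18. ERKi differed from DMSO by 0.18 at 4h and by 0.0159 there without ERKi 4h replicate 2. At 24h it differed by -0.29, and by -0.0793 when fold enrichment is summed in place of pileup. The libraries overlapped as groups at both times, but at 24h the ERKi library was the lower in 3 of 3 replicate pairs. ERKi 24h differed from ERKi 4h by -0.10, with an exact two-sided permutation p of 0.7. That sign rests on ERKi 4h replicate 2, without which the difference is 0.06.

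By pileup, most of the difference from 0h lay in the upstream stretch, taken here as all peaks more than 1 kb upstream of the first start site. The stretch was chosen after seeing the data and was not summed by fold enrichment. Its signal was 212 ± 4.36 at 0h, 81.8 ± 12.6 at 4h, 120.2 ± 14.4 at 24h, 104 ± 29.0 at ERKi 4h and 80.2 ± 2.86 at ERKi 24h. The 0h libraries, from 207 to 216, were above all 12 libraries with TGF-β, whose highest was 137. The 3 ERKi 24h libraries, 77.1, 80.9 and 82.7, were below the 3 DMSO libraries of 24h, 110.1, 137 and 114.

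**Figure D5:**
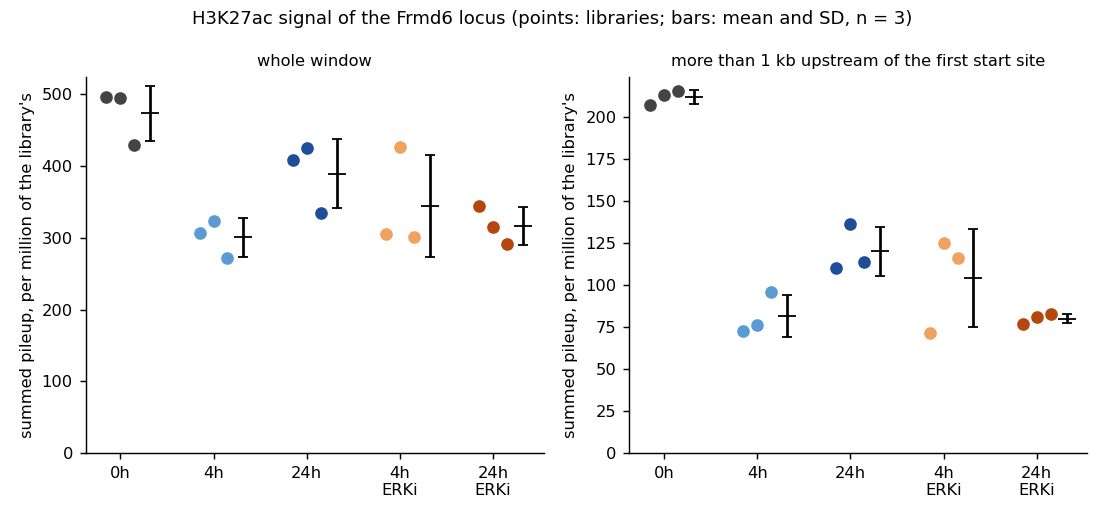
Summed pileup of the peaks of the locus per 1000000 of the library's summed pileup (y axis) in each library by condition (x axis), for the whole window and for the peaks more than 1 kb upstream of the first start site; bars give mean and SD of 3 libraries. Upstream, the 0h libraries lie between 207 and 216 and the 12 libraries with TGF-β at 137 or below.

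The regions at the starts of the neighbouring genes had high pileup percentiles in all 5 conditions. The 4 regions with the highest mean percentile over the 15 libraries were those at the starts of Psma3, a proteasome subunit gene, and of the lincRNA 3110056K07Rik, and the pair at the start of Frmd6. The Psma3 region (chr12:72075586-72076923) had mean percentiles between 94.7 and 96.2 in the 5 conditions, and that of 3110056K07Rik (chr12:72115653-72116646) between 82.9 and 88.5. The region at the start of Actr10, which encodes a dynactin subunit (chr12:72038111-72039830), lay between 68.2 and 78.5. Of the 7 neighbouring regions, 0 separated 0h from 4h or ERKi from DMSO at either time by pileup percentile. Over all regions, the share was 5.21% for 0h above 4h and 8.34% for the reverse. For ERKi above DMSO it was 3.68% at 4h and 8.81% at 24h, and for the reverse 3.52% and 6.55%. With only 7 regions, nothing is read from this count. The region 142.9 kb downstream was higher at 24h than at 0h in every library by pileup percentile (70.0 ± 1.48 at 0h against 78.4 ± 4.23). Its fold enrichments at 0h and 24h overlapped. By percentile of fold, the same region had every ERKi 24h library below every DMSO 24h library.

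Over all 29 summit windows, 9 held a TEAD match, beside 16.3% of all 89050 regions. AP-1 was matched in 2 (9.99% of all), GRHL in 2 (2.2%), RUNX in 1 (6.19%), ETS in 17 (37.4%), FOX in 1 (4.29%), the SMAD element in 18 (54.9%) and the E-box in 4 (21.2%). Of the 8 windows of 300 bp centred on gaps of at most 300 bp between neighbouring regions, 3 held an AP-1 match. This stands beside 28.0% of all 22722 such windows. These windows extend into the regions on both sides of the gap. The median GC content of the summit windows was 49.3%, and 48.3% over all regions.

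Of the 15 windows upstream of the first start site, 7 held a TEAD match, beside 16.3% of all regions. They were those at 118.7, 117.4, 112.6, 105.0, 85.3, 30.2 and 0.5 kb, and the other 8 held none. More of the same 15 windows held an ETS match, beside 37.4% of all regions. The split by position is listed for TEAD only, and nothing is read from it.

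The same calls were applied to the windows of 20 genes of the Hippo pathway; Fat4, also on the list, had no peak within 150 kb of a start site. Of their 563 regions with a peak in any library, 4 were called in all 0h and no 24h libraries (0.71%, beside 1845 of all 89050 regions). In all 24h and no 0h libraries, 22 were called (3.91%, beside 4376 of 89050). The 4 lay near Mob1b (2), Lats1 (1) and Tead4 (1), and the 22 near 11 genes, with 7 at Amotl1, a scaffold that binds Yap1. The kinase gene Lats2 and the coactivator gene Yap1 had none of either kind.

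Locus signal also varied over the pathway. The log2 difference of 24h from 0h was -0.83 for the phosphatase gene Ptpn14, -0.69 for Mob1b and -0.61 for Amotl2, beside -0.29 for Frmd6, and 1.12 for Amotl1 and 0.42 for Wwtr1. With ERKi at 24h, the log2 difference from DMSO was 0.98 for Ptpn14, -0.68 for Amotl1 and -0.65 for Wwtr1, beside -0.29 for Frmd6. These comparisons share the DMSO libraries of 24h, so the values are only set side by side. Over 20062 protein-coding genes with a peak in their window, 1297 (6.46%) had 2 or more regions called in all 0h and no 24h libraries, as Frmd6 does.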

How the data were processed

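H3K27ac ChIP-seq peak lists of 15 libraries were analysed; the 10 RNA-seq and 3 input samples of the series were not analysed here. Reads were aligned by the authors with Bowtie (mm9), and MACS2 was run on every library separately; the control used at calling is not given in the sources used here. The deposited lists hold, for each peak, the fold enrichment (a ratio of summit pileup to local background), −log10 p, −log10 q and a score that repeats −log10 q and was not used. Lowest −log10 q was 1.30 to 1.60 by library.

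Pileup and background were solved from the fold and −log10 p, with fold as (pileup + 1) / (background + 1) and a Poisson tail; 25 of 893719 peaks missed the tolerance of 0.005, and 0 of 376 in the locus. Percentiles used mean ranks of ties. Peaks overlapping by at least 1 bp were merged. Genes came from GENCODE vM1 and sequence from NCBIM37 (mm9). The steps were tested on simulated data. Python 3.11.15, NumPy 2.4.6, SciPy 1.17.1 and pandas 2.3.3 were used.

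Regions named by rule were those called in all libraries of one condition and none of another, those at the Frmd6 start and the 4 with the highest mean percentile; others were named after their values were seen. The members, lists and tests were chosen with earlier results of these data known. Replicate numbers pair the libraries: same-numbered libraries of different conditions deviated together from their condition means in 30 of 30 pairs (r above 0.1 in each, mean 0.555, over 26934 regions called in every library). Lists hold no read totals, so 3 libraries per condition set the precision and no counting interval was computed. The alternatives were other measures, windows, merging, call thresholds, left-out libraries and the replicate block.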

Additional observations from a re-analysis of the deposited data

How the results depend on the processing

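The direction of the locus signal was the same under every alternative for the 4h and the 24h difference from 0h and for the ERKi difference from DMSO at either time. The log2 difference of 4h from 0h (-0.65) was -0.46 by fold enrichment, -0.51 by −log10 p, -0.51 by bases covered, -0.80 in a 100 kb window, -0.89 with peaks assigned to the nearest start site and -1.17 upstream of the first start site only, an alternative chosen after seeing the data. Upstream only, 24h differed from 0h by -0.74 and ERKi 24h from 24h by -0.455. ERKi 24h differed from 24h by -0.0793 by fold enrichment and -0.13 by bases covered, and ERKi 4h from 4h by 0.42 with the nearest start site. With single libraries left out, 4h differed from 0h by -0.725 to -0.583, 24h from 0h by -0.355 to -0.18, ERKi 4h from 4h by 0.0159 to 0.266 and ERKi 24h from 24h by -0.399 to -0.227. ERKi 24h against ERKi 4h (-0.10) was 0.0300 with the nearest start site, and -0.189 to 0.0603 with single libraries left out. With the replicate block the paired difference was -0.10, with an exact sign-flip p of 0.75, the smallest possible being 0.25.

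Counts of regions whose libraries do not overlap were also taken by percentile of fold enrichment, chosen after seeing the data. Counts of called regions were small and moved by a few regions. Those called in all 0h and no 4h libraries (2) were 1 with merging within 1000 bp, 5 with at least 0.5 of the region covered and 4 at −log10 q of at least 10. Those called in all 0h and no 24h libraries (2) were 4 at that limit, and 2 to 4 with single libraries left out. Those of ERKi 4h against 4h (0) were 0 to 2, and of ERKi 24h against 24h (0) 0 to 1, with single libraries left out. The count of all 24h and no 0h libraries, added after seeing the data, was 1 with merging within 1000 bp, 1 with 0.5 of the region covered and 0 among the top 20000 peaks of each library.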

Other observations

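The next region upstream of the window, 164.7 kb from the first start site of Frmd6 (chr12:71761505-71762045), was called in 4 libraries, all of them at 24h, with a mean percentile of 25.8 with DMSO and 17.6 with ERKi. The last region inside the window on that side is the one 129.9 kb upstream, with means of 28.1 at 0h and 34.1 at 24h. On the downstream side the next region, 165.0 kb from the second start site, was called in 1 library, and the last inside had means between 47.6 and 55.5.

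Among 16219 protein-coding genes with at least 5 peaks per library on average, the log2 locus signal most like that of Frmd6 over the 15 libraries was that of Coro1a (Pearson's r 0.891), an actin-binding protein gene, then Bola2 and Slx1b (0.888 each), Sult1a1 (0.882) and Vmn1r87 (0.872). The first 4 have overlapping windows on chromosome 7 and so share peaks. The 99th percentile of r over all these genes was 0.768, and the 15 points share their libraries and condition steps, so these values only describe likeness.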
